A study of Mus musculus with 2 samples.

Results

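The genes described here encode some of the subunits of the mouse SMC complexes. They are 10 of the 21887 protein-coding genes in RefSeq's annotation of assembly GRCm38.p6. The set holds the condensin genes Smc2, Smc4, Ncaph, Ncapg and Ncapd2 and the cohesin genes Smc1a, Smc3 and Rad21. It also holds Smc5 and Smc6, the core of the SMC5/6 complex. The set was selected on the height of the Smc2 peak in cells given IL-4, so the peak values at Smc2 are a description and support nothing. Peaks were taken where the summit, the highest point of a peak, lay no more than 50 kb from an end of a gene, which gave 134 of the 240661 IL-4 peaks and 60 of the 149349 untreated peaks.

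The peaks come from CUT&Tag, in which an antibody, here against the phosphatase PHLPP1, brings a transposase to chromatin so that nearby DNA is tagged and sequenced. The cells were mouse bone marrow-derived macrophages grown with M-CSF at 20 ng/ml, in 1 library given IL-4 at 20 ng/ml for 4 h and 1 untreated library. Both were taken as wild-type, as the series design and the extraction protocol state. The labels' treatment protocol also mentions Phlpp1-deficient cells, and no sample label gives a genotype. IL-4 drives alternative activation of macrophages. There was 1 library per group, so no difference between the groups could be tested, and no library with a control antibody or from PHLPP1-deficient cells was analysed here.

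SMC proteins are long ATPases that pair into rings closed by a kleisin subunit, and these rings hold or extrude loops of DNA. Condensin, built on SMC2 and SMC4, compacts chromosomes for mitosis. Cohesin, built on SMC1A and SMC3, holds sister chromatids together and shapes chromatin loops in interphase, also in cells that do not divide. The SMC5/6 complex acts in DNA repair and replication.

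The sequences shown are the starts of Smc2, Smc3 and Smc6, which the main peaks cover in whole or in part. The start of Ncapg is added as one with no listed peak. Each is the RefSeq window from 250 bases before to 50 bases after the gene's start, on build GRCm38.p6, 5′ to 3′ on the plus strand. They lie at chr4:52438971-52439270 (Smc2), chr19:53600146-53600445 (Smc3), chr12:11265636-11265935 (Smc6) and chr5:45669675-45669974 (Ncapg). Capitals mark matches, on either strand, to the 5 motifs described further on.
Smc2: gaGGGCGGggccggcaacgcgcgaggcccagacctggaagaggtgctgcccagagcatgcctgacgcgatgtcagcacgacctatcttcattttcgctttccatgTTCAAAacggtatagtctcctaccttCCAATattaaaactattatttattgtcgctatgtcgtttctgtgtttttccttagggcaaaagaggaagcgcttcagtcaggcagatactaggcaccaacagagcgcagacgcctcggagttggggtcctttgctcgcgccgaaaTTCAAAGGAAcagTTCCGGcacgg
Smc3: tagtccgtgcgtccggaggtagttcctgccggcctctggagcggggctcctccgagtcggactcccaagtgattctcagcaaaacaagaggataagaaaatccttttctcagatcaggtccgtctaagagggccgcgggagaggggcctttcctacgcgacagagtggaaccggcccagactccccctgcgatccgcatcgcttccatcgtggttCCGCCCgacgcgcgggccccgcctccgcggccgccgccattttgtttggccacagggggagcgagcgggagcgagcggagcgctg
Smc6: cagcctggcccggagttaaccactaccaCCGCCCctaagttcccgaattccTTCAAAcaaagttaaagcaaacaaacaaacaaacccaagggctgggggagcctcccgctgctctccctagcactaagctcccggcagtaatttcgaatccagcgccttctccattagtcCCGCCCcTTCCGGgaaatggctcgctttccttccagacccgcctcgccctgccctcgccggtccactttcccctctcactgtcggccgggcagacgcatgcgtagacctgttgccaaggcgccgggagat
Ncapg: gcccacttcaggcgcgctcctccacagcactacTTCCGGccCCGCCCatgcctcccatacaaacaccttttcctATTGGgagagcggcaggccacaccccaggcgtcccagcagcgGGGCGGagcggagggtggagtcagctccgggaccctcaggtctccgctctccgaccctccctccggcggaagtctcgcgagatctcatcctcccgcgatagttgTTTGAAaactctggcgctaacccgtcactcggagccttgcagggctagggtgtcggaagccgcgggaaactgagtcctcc
The IL-4 peak covered all 300 bases of the Smc2 and Smc3 windows and 226 bases of the Smc6 window. The summit of the Smc6 peak, 347 bp inside the gene, lay outside that window. The untreated peak at Smc2 covered 213 bases of its window, and no listed untreated peak touched the windows of Smc3 or Smc6. Neither list had a peak in the Ncapg window.

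Peaks at the ends of these genes were listed more often with IL-4, and the highest were at the starts of Smc2, Smc3 and Smc6. A gene-end peak is one with its summit within 1 kb of an annotated end. In the IL-4 list 7 of the 10 genes had one, against a background of 49.3% of all protein-coding genes. In the untreated list 2 of 10 did, against 22.7%. Smc2 and Smc4 had such peaks in both lists (background 13.8%), while Ncapd2, Smc1a, Smc3, Smc5 and Smc6 had one in the IL-4 list only (background 35.5%). No member had one in the untreated list only (background 8.93%), and Ncaph, Ncapg and Rad21 had none in either list. The background for these last genes is the share of all genes left outside the 13.8%, 35.5% and 8.93%. At the caller's q of at most 0.05, Smc2, Smc3, Smc6 and Smc4 remained in the IL-4 list (4 of 10, background 18.3%) and Smc2 in the untreated list (1 of 10, background 4.02%). Past a −log10 q of 5, the IL-4 list kept Smc2 and Smc3 (2 of 10, background 2.63%) and the untreated list Smc2 (1 of 10, background 0.0548%). Smc2 chose the set, and with 10 genes these counts call nothing particular to it.

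**Figure D1:**
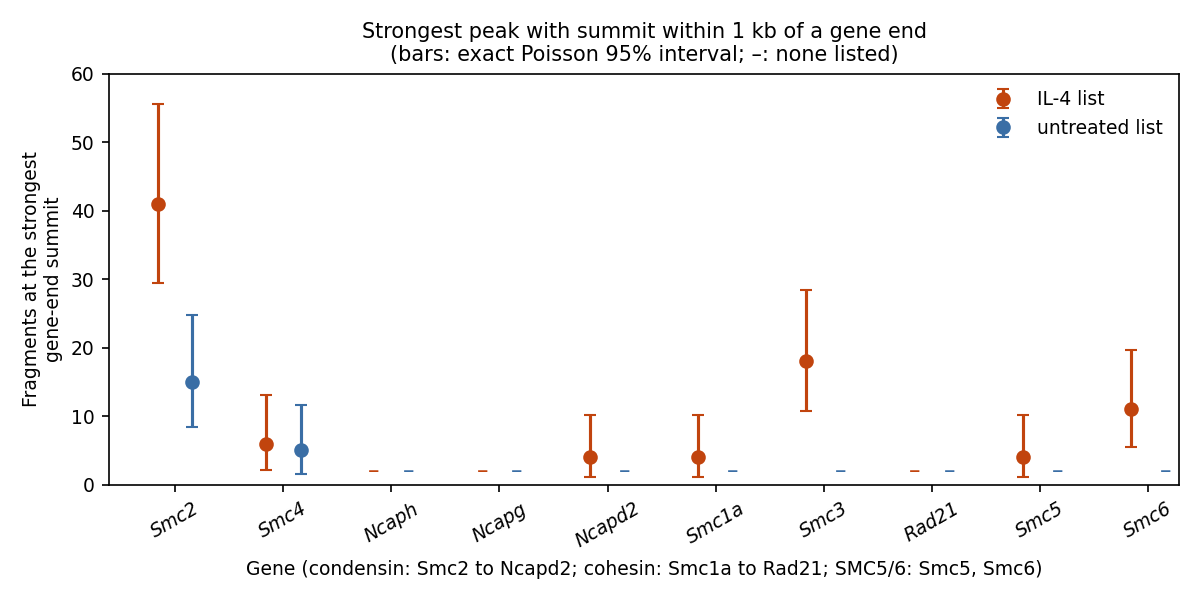
Fragments at the strongest summit within 1 kb of a gene end for each gene (x axis), with exact Poisson 95% intervals, for the IL-4 list (orange, left) and the untreated list (blue, right); a dash means that no such peak was listed. Smc2 had 41 fragments with IL-4 and 15 without, Smc3 had 18 and Smc6 11 with IL-4 only, and every other listed value was 6 or lower.

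Smc2, one of the 2 condensin ATPases, had the highest peak of the set in both lists. The number of fragments at a summit was solved from the deposited fold and p, and its interval covers counting error only. The Smc2 summit held 41 fragments with IL-4 (exact Poisson 95% interval 29.4 to 55.6), against 15 fragments in untreated cells (8.40 to 24.7). The 2 intervals do not overlap, but the set was chosen on this IL-4 summit and the total reads of the libraries are unknown. The intervals do not cover the spread between cultures, and the difference was not tested. By −log10 q, 39.1 with IL-4 and 8.50 without, the Smc2 peak ranked 2 of 240661 in the IL-4 list and 38 of 149349 in the untreated list. The summits lay 115 bp before the gene's start with IL-4 and 127 bp before it without, 12 bp apart. The IL-4 interval, chr4:52438724-52439421, was 698 bp wide and contained the whole untreated interval of 213 bp, chr4:52438996-52439208. A second summit of 8 fragments stood 300 bp from the main one within the IL-4 interval.

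How much higher the Smc2 summit was with IL-4 depended on the scale. Fragment numbers differed 2.73-fold, and the authors' fold enrichments, 18.2 with IL-4 and 8.26 without, differed 2.2-fold. The local background used by the caller was 1.31 fragments at Smc2 in the IL-4 library, above the lowest value in that library, 0.643. It was 0.936 in the untreated library, equal to the lowest value there. Divided by each library's lowest background, the summits stood at 63.8 with IL-4 (interval 45.8 to 86.5) and 16.0 without (8.97 to 26.4), a 3.98-fold difference. All 3 scales put IL-4 higher, but they use the same summits and are not separate checks. The summit also lay near the annotated end of the non-coding RNA gene Smc2os, 142 bp away with IL-4 and 130 bp without, so the peak cannot be assigned to either gene.

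The second condensin ATPase gene, Smc4, had weak gene-end peaks, and the strongest one listed lay at a different place in each list. With IL-4 a 710 bp interval of 6 fragments (2.2 to 13.1; −log10 q 1.75) had its summit 28 bp inside the gene's lower-coordinate end, and a peak of 3 fragments (0.619 to 8.77) lay at 870 bp. In untreated cells the only gene-end peak held 5 fragments (1.62 to 11.7; −log10 q 0.737), with its summit at 950 bp. It overlapped the IL-4 peak of 3 fragments and not the stronger one. Another IL-4 peak of 6 fragments lay 1629 bp inside Smc4, outside the 1 kb limit. The main IL-4 summit was 86 bp from the end of Ift80, a gene of intraflagellar transport whose end lies 58 bp from that of Smc4.

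**Figure D2:**
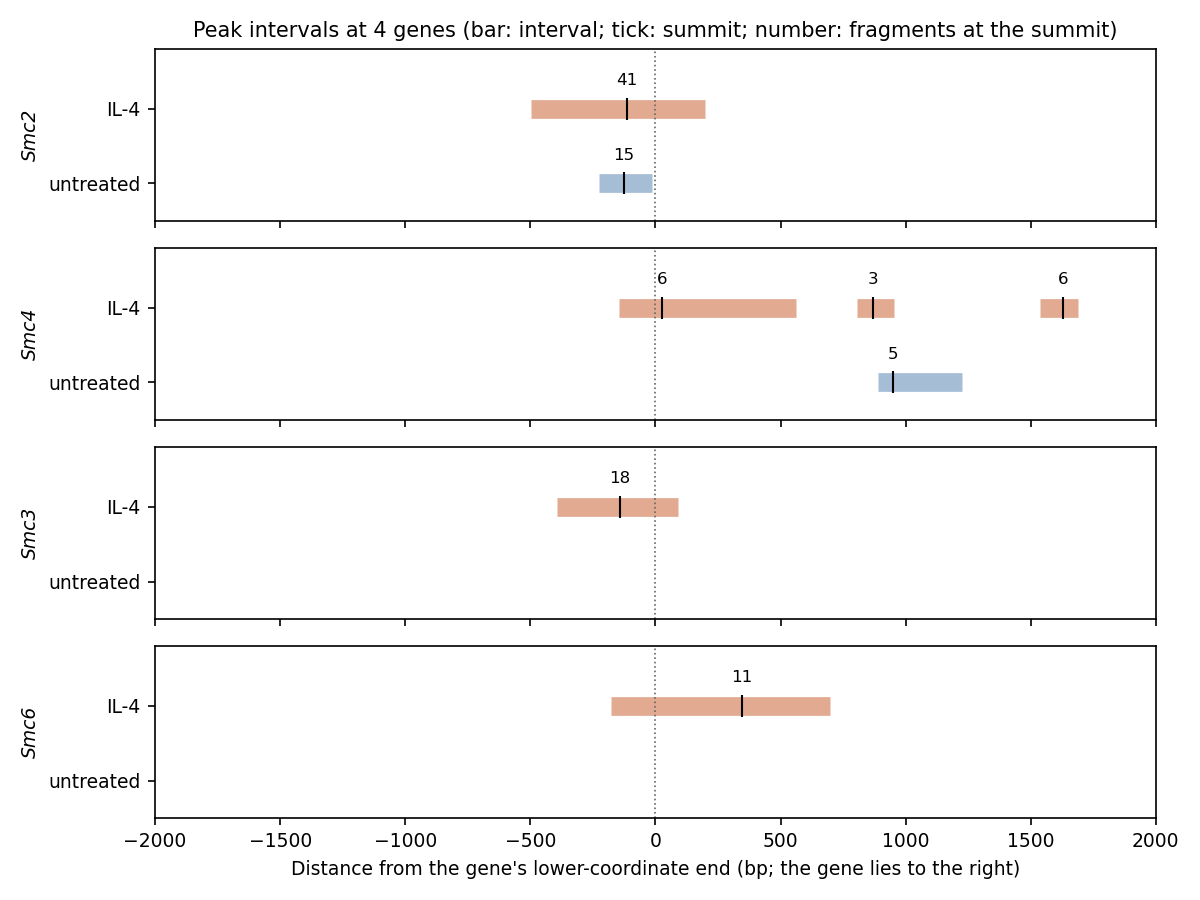
Peak intervals (bars), summits (ticks) and fragments (numbers) around the lower-coordinate end of Smc2, Smc4, Smc3 and Smc6, with distance in bp on the x axis and the IL-4 list above the untreated list. At Smc2 the 213 bp untreated interval lies inside the 698 bp IL-4 interval, at Smc4 the untreated peak meets only the IL-4 peak of 3 fragments, and at Smc3 and Smc6 only the IL-4 list has a peak.

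The other condensin subunit genes had no gene-end peak past q 0.05 in either list. Ncapd2, which encodes a HEAT-repeat subunit of condensin I, had an IL-4 peak of 4 fragments (1.09 to 10.2) 879 bp outside its upper-coordinate end and no untreated one. That summit lay within Mrpl51, a mitochondrial ribosomal protein gene, 779 bp from its end, and 1393 bp before the start that RefSeq's promoter table gives for Ncapd2. Ncaph, the kleisin gene of condensin I, had its nearest summits 3184 bp from an end with IL-4, with 6 fragments, and 1147 bp from an end without, with 4 fragments. At Ncapg, the gene of the other HEAT-repeat subunit, the nearest summits lay 11780 bp away with IL-4 and 6337 bp away without.

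Among the cohesin genes, Smc3 had a strong start peak with IL-4 and none listed without. The IL-4 summit, in chr19:53600001-53600485, held 18 fragments (10.7 to 28.4) at a fold of 11 and a −log10 q of 14.3, 143 bp before the start. It ranked 44 in the whole IL-4 list. The untreated list had no summit nearer than 12849 bp to an end of Smc3. No other annotated gene had an end within 2 kb of the Smc3 ends. Smc1a, whose protein pairs with SMC3, had 4 fragments (1.09 to 10.2) with IL-4, 349 bp inside its start and 109 bp from the end of the neighbouring Ribc1, and none without, where the nearest summit was 11821 bp away. Rad21, the kleisin gene of mitotic cohesin, had its nearest summits 1613 bp from an end with IL-4, with 3 fragments, and 9223 bp without, with 7.

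Of the SMC5/6 genes, Smc6 had the strongest end peak after those of Smc2 and Smc3, and Smc5 had one of the weakest. The Smc6 peak with IL-4, chr12:11265710-11266583, held 11 fragments (5.49 to 19.7) at a −log10 q of 4.81. At 874 bp it was the widest of the gene-end peaks, with its summit 347 bp inside the gene and 204 bp from the end of Gen1, which encodes a resolvase of DNA junctions. The untreated list had no summit within 9708 bp of an end of Smc6. At Smc5 the IL-4 peak held 4 fragments (1.09 to 10.2), 55 bp inside the upper-coordinate end and 41 bp from the end of the non-coding RNA gene Gm33950. The nearest untreated summit lay 3558 bp from an end of Smc5. The promoter table places the start of Smc5 1323 bp from that annotated end, so this summit stood 1268 bp before the tabled start.

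The gene-end heights with IL-4 thus ran Smc2 (41 fragments), Smc3 (18), Smc6 (11), Smc4 (6) and then Ncapd2, Smc1a and Smc5 (4 each). The intervals of Smc2 and Smc3 do not overlap, but the set was chosen on the Smc2 summit and this difference was not tested. Those of Smc3 and Smc6, of Smc6 and Smc4, and of Smc4 and the genes with 4 fragments do. The absence of a gene-end peak means that no summit there is in the caller's list, which starts at a p of 0.01 and holds no values of weaker sites. The lowest fragment number listed was 3 with IL-4 and 4 in untreated cells, where the lowest background was 1.46 times as high.

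The starts that carried peaks could be named for 8 of the 10 genes, those with an entry in the promoter table; Smc4 and Rad21 are the others. Within 1 kb of the tabled start, 4 of 8 had an IL-4 summit (Smc2, Smc3, Smc6 and Smc1a; background 43.3% of 17492 genes with a tabled start) and 1 of 8 an untreated one (Smc2; background 15.6%). The IL-4 intervals at the starts of Smc2, Smc3, Smc6 and Smc1a were 698, 485, 874 and 241 bp wide. The median was 164 bp over the IL-4 list and 233 bp over the strongest IL-4 end peaks of all genes. Those end peaks had a median of 5 fragments.

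In base composition the start windows of the 8 genes ranged widely. The Smc2 window had 52.7% G and C and 21 CpG dinucleotides, the Smc3 window 65.0% and 32, and the Smc6 window 59.7% and 20. Windows without a peak in either list were as rich, with 65.0% and 24 at Ncapg, 61.3% and 27 at Ncaph, 64.3% and 29 at Ncapd2, and 58.3% and 23 at Smc1a. Smc5 had the poorest window, at 45.0% and 6. The medians over these 8 windows were 60.5% and 23.5, against 56.3% and 13 over 21263 windows of protein-coding genes.

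The 5 motifs were searched on both strands, and a match is only a match of letters. The CCAAT box (CCAAT) was in 4 of 8 windows, those of Smc2, Ncapg, Ncapd2 and Smc1a, against 38.2% of all windows. The GC box (GGGCGG) was in 6 of 8, against 46.2%, and the core of ETS factor sites (CCGGAA) in 6 of 8, against 18.7%. The CHR element (TTTGAA), known from promoters of cell cycle genes, was in 4 of 8, those of Smc2, Ncapg, Ncapd2 and Smc6, against 16.0%. A palindrome of the spacing that STAT6, the factor activated by the IL-4 receptor, prefers (TTCNNNNGAA) was in 3 of 8, those of Smc2, Ncaph and Smc1a, against 6.35%. In the Smc2 window it began at base 277 and shared its first 6 bases with a CHR match. By number of motifs, the Smc2 window held all 5, the Smc6 window 3 and the Smc3 window 1, while the Ncapg window, with no listed peak, held 4.

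Over the wider surroundings, 9 of the 10 genes had more IL-4 than untreated peaks within 50 kb, as did 85.1% of all genes. Rad21 had 20 IL-4 peaks and 2 untreated peaks, the largest excess of the set, at 2.81 on the log2 scale of (IL-4 + 1)/(untreated + 1). At Smc6 the numbers were 15 and 3 (log2 2.0), at Ncapd2 21 and 8 (1.29), and at Ncaph 16 and 6 (1.28). Smc4 had 13 and 5 (1.22), Smc2 15 and 7 (1.00) and Smc1a, on the X chromosome, 4 and 2 (0.74). Ncapg had 9 and 7 (0.32), Smc3 11 and 9 (0.26), and Smc5 10 and 11 (-0.13), the only member with fewer IL-4 peaks. The excess was at least 2-fold for 6 of 10, against 41.1% of all genes, and the median log2 ratio was 1.11, against 0.81 over all genes.

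**Figure D3:**
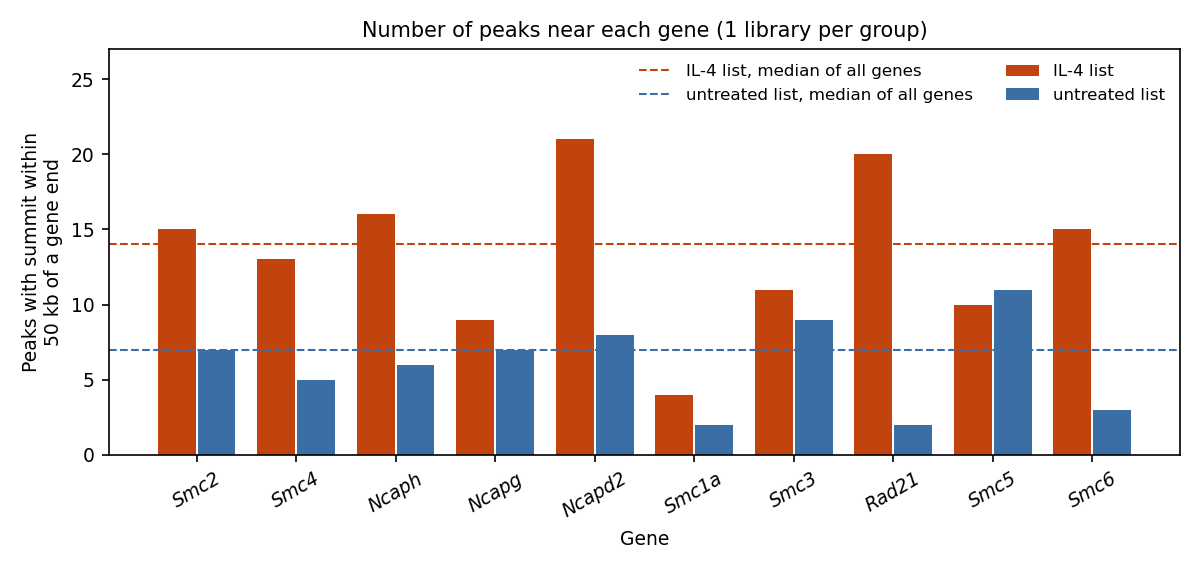
Number of peaks with a summit within 50 kb of an end of each gene (y axis), IL-4 list in orange and untreated list in blue, with the medians over all protein-coding genes, 14 and 7, as dashed lines. Rad21 (20 and 2) and Smc6 (15 and 3) show the widest ratios and Smc5 (10 and 11) the reverse order.

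Gene-end height and the excess of IL-4 peaks went together at some genes and not at others. Smc6, with 11 fragments at its end, had 15 IL-4 peaks and 3 untreated ones, the second highest ratio of the 10 genes. Smc3, with the second highest end peak, had nearly equal numbers of peaks in the 2 lists, while Rad21, with the largest excess of IL-4 peaks, had no end peak. The Rad21 peaks were mostly weak, with a median of 3.5 fragments over the 20 IL-4 peaks and 5.5 over the 2 untreated ones. The strongest, at chr15:51944345-51944668, held 8 fragments (3.45 to 15.8) at a −log10 q of 3.38, 18035 bp outside the gene. Over all 10 genes the IL-4 peaks had a median of 4 fragments and the untreated peaks 5. Of them, 15 of 134 with IL-4 (11.2%) and 10 of 60 without (16.7%) passed q 0.05, against 12.5% and 14.6% of the whole lists.

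Away from gene ends the strongest peaks of the set stayed at 9 fragments or fewer. In the untreated list the highest was 9 fragments (4.12 to 17.1) at chr4:52515294-52515572, 26997 bp beyond Smc2. With IL-4 Ncapd2 had 2 peaks of 8 fragments, one of them 2283 bp from its lower-coordinate end and inside Gapdh. Inside the genes lay 40 of the 134 IL-4 summits and 14 of the 60 untreated summits. The share for all genes was not computed, so these counts have no background. At the 50 kb limit the farthest IL-4 peak inside was at Rad21 (49762 bp, 3 fragments) and the nearest outside at Smc3 (51037 bp, 5 fragments). The untreated peaks there were at Smc2 (48670 bp, 5 fragments) and at Ncapd2 (51195 bp, 6 fragments). At the 1 kb limit the IL-4 summits inside and outside were those of Ncapd2 (879 bp, 4 fragments) and Smc3 (1282 bp, 5 fragments), and the untreated ones those of Smc4 (950 bp, 5 fragments) and Ncaph (1147 bp, 4 fragments).

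**Figure D4:**
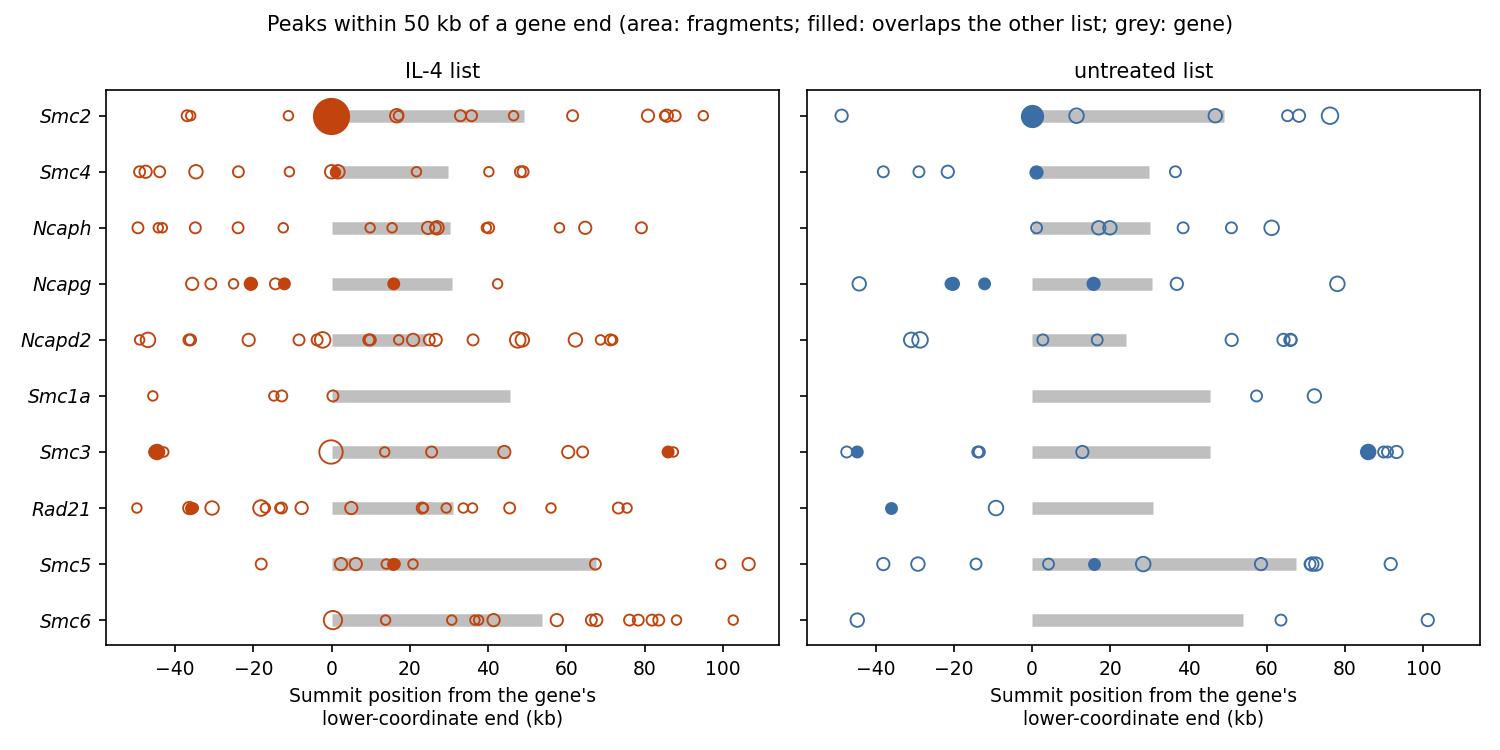
Positions of all 134 IL-4 summits (left) and 60 untreated summits (right) in kb from each gene's lower-coordinate end; circle area is proportional to fragments, filled circles overlap a peak of the other list, and grey bars are the genes. The Smc2 start is high in both panels, the Smc3 and Smc6 starts in the IL-4 panel only, and 4 filled circles, 2 of them nearly coincident, lie at Ncapg.

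Few sites near these genes were listed in both libraries, and Ncapg held the most. Overlap of at least 1 bp was found for 10 of 134 IL-4 peaks (7.46%, Wilson 95% interval 4.10 to 13.2; whole list 5.42%) and 10 of 60 untreated peaks (16.7%, 9.31 to 28; whole list 8.73%). The intervals treat peaks as independent, although 4 of the shared sites lay at Ncapg and 1 was the Smc2 peak that chose the set. They are therefore no test against the whole lists. At Ncapg 4 of 9 peaks overlapped with IL-4 and 4 of 7 without, all of 3 to 5 fragments. Of these sites 3 lay before the gene, between 12055 and 20726 bp from its end, and 1 inside it. At chr5:45657697-45657843 the IL-4 interval began at the same base as the untreated one and held 4 fragments in each list. Smc3 had 2 shared sites, 1 with 7 fragments with IL-4 and 4 without, 44612 bp before the gene, and 1 with 4 fragments with IL-4 and 7 without, 40579 bp beyond it. Smc2, Smc4, Rad21 and Smc5 had 1 each. Ncaph, Ncapd2, Smc1a and Smc6 had none. The start of Smc2 was the only shared site that passed q 0.05 in both lists.

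The other genes of the SMC complexes, 30 loaders, release factors, regulators and alternative subunits, had mostly weak end peaks. An IL-4 end peak was listed for 19 of 30, against 49.3% of all genes, and an untreated one for 10 of 30, against 22.7%. Past q 0.05 the counts were 3 of 30 with IL-4 (background 18.3%) and 2 of 30 without (4.02%). A −log10 q of 5 was reached by 0 of 30 in both lists (background 2.63% with IL-4 and 0.0548% without). The following are named after their values were seen. The highest was at Cdca5, which encodes sororin, a protector of cohesion, with 11 fragments with IL-4 and 5 without, at −log10 q 4.11 and 0.737. Nsmce2 and Nsmce1, subunit genes of the SMC5/6 complex, had 7 and 6 fragments with IL-4 and none listed without. Ctcf, encoding the factor that stops cohesin at loop anchors, had 5 fragments with IL-4 and 7 without. Of the genes whose products release cohesin from DNA, Wapl and Pds5a had no end peak in either list and Pds5b had one of 4 fragments with IL-4 alone. The condensin II genes Ncapg2, Ncaph2 and Ncapd3 had 5, 5 and 4 fragments with IL-4, with an untreated peak at Ncapg2 alone, of 5. The median log2 ratio of peaks within 50 kb was 1.17 over the 30 genes, against 0.81 over all genes. All 30 had more IL-4 than untreated peaks, as did 85.1% of all genes.

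The 5 protein-coding genes closest to Smc2 in the heights of overlapping end peaks, out of 1013 genes with such peaks, were Pknox1, Mtrf1l, Ensa, Csnk1g2 and Upf2. Closeness was the Euclidean distance of log2 fragments over the 2 libraries, 0.54 for Pknox1 and 0.96 for Upf2. Pknox1 had 29 fragments with IL-4 and 13 without, Mtrf1l 24 and 12, Ensa 26 and 10, and Csnk1g2 25 and 10. Upf2 had 23 and 21, so its heights were nearly equal.

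The cell type could not be checked by expression, because peak lists hold no RNA levels. Of 10 macrophage marker genes, 6 had an IL-4 end peak, against 49.3% of all genes, and 1 an untreated one, against 22.7%. None reached a −log10 q of 5 (background 2.63% with IL-4 and 0.0548% without). Csf1r, Adgre1, Itgam and Lyz2 had no end peak in either list. Of all genes, 49.3% had one with IL-4 and 8.93% in the untreated list only, and the rest had none either.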

How the data were processed

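CUT&Tag for PHLPP1 was analysed in 2 libraries of mouse macrophages, 1 per group. The authors deposited 1 peak list per library, so peaks were called per sample. Build mm10 and the tools DiffBind, MACS2 2.2.7.1 and Bowtie 0.12.8 are listed in the submitters' processing notes. Duplicate handling, fragment size and any control are not given in the sources used. The deposited values per peak are a score, a linear fold ratio of the summit over the local background, −log10 p and −log10 q, and the summit offset. The score was not used. Folds and −log10 q come from the authors' caller and served to describe and rank peaks within a list.

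Fragments (n) and local background (b) were solved from the deposited fold, (n + 1)/(b + 1), and −log10 p, the Poisson probability of more than n. For 100% of entries in both lists a whole number met the deposited −log10 p to within 0.01, and the solver was tested on simulated data. Entries sharing an interval were reduced to the summit of highest −log10 q, leaving 240661 of 241315 IL-4 entries and 149349 of 149552 untreated entries. Total reads are unknown. Positions count from 1. Gene ends are those of RefSeq GRCm38.p6, the same assembly as mm10; strand and starts came from its promoter table. Python 3.11.15, numpy 2.4.6, pandas 2.3.3 and scipy 1.17.1 were used.

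All 10 genes were described. Of the other SMC genes, those with an end peak of −log10 q at least 5 were to be named, and there were none. The genes and lists were chosen with earlier results of these data known. Alternatives were the end window, the 50 kb window, peak thresholds, equal list lengths (IL-4 peaks of highest −log10 p, ties broken at random), all summits and a reciprocal overlap.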

Additional observations from a re-analysis of the deposited data

How the results depend on the processing

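No paired analysis was possible because each group had 1 library. A count was taken as moved when it differed by over 1.5 times from the reported one, and a share or the Smc2 ratio when it left its 95% interval. By this measure 17 of 38 alternative values moved. The number of the 10 genes with an IL-4 end peak, 7, was 4 at q of at most 0.05 and 2 past a −log10 q of 5. The untreated number, 2, was 1 with a 500 bp window, 4 with a 3 kb window, 1 at q of at most 0.05 and 1 past a −log10 q of 5. For the 30 other SMC genes the IL-4 number, 19, was 3 and 0 at these 2 thresholds. Their untreated number, 10, was 6 with 500 bp, 16 with 3 kb, 2 at q of at most 0.05 and 0 past a −log10 q of 5. A wider window can only raise such counts, for any genes. The share of all genes was not computed for the 500 bp and 3 kb windows, so these counts have no background. Of both lists' peaks within 50 kb of the 10 genes, 69.1% were IL-4 peaks (whole lists 61.7%). This share was 60% at q of at most 0.05 (whole lists 57.8%), 58.6% with at least 4 fragments (52.2%) and 57.1% with lists of equal length (50%). The whole lists are not limited to peaks near genes. Within 50 kb, the medians over all protein-coding genes were 14 IL-4 peaks and 7 untreated peaks. With 50% reciprocal overlap, 2.99% of IL-4 and 6.67% of untreated peaks near the genes were shared, in place of 7.46% and 16.7%. The whole-list shares under this stricter rule were not computed. The −log10 q threshold of 5 and the scaling of Smc2 by the lowest background were chosen after seeing the data. Most peaks rest on 3 to 5 fragments, where the lists cannot show small differences.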

Other observations

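The meiosis-specific cohesin genes, grouped after the values were seen, had weak end peaks in the untreated list and none in the IL-4 list. Stag3, Rec8, Rad21l and Smc1b, which replace mitotic subunits in germ cells, each had an end peak in the untreated list alone, with 7, 4, 5 and 5 fragments. An end peak in the untreated list only was found for 8.93% of all genes and for 6 of the 30 genes of the wider SMC list. The −log10 q values of the 4 genes were 1.57, 0.408, 0.737 and 0.737. In the rest of the wider list Stag1 and Nsmce3 were untreated-only, with 4 and 6 fragments. Of the mitotic counterparts, Smc1a and Stag2 had an IL-4 end peak alone, of 4 fragments each, and Rad21 had none. Stag1, also mitotic, was untreated-only like the meiotic genes. Within 50 kb the 4 meiotic genes nevertheless had more IL-4 than untreated peaks, 18 and 4 at Stag3, 17 and 8 at Rec8, 16 and 11 at Rad21l, and 11 and 7 at Smc1b. These differences have no replicate check and were not tested.

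Hdac8, the gene of the deacetylase that recycles SMC3, is named after the values were seen. Its log2 ratio of peaks within 50 kb, 3.32, was the highest of the 30 other SMC genes. It had 9 IL-4 peaks and 0 untreated peaks there, against medians of 14 and 7 over all genes. More IL-4 than untreated peaks were found at 85.1% of all genes. Stag2 and Smc1a, like Hdac8 on the X chromosome, had 2 untreated peaks each. The end peak at Hdac8 held 3 fragments with IL-4.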
